A study of Homo sapiens with 18 samples.

Results

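The cells compared were HEK293, an established human embryonic kidney line made to overexpress the murine form of TLR5, after 120 min against 60 min of isolated flagellin from the probiotic E. coli Nissle (EcN). Arrays were chosen by title, as the 3 arrays of EcN at the second time point and the 3 at the first, which makes 6 of the 18 arrays in the study. The array is the Affymetrix Human Gene 2.1 ST, and it reads 53617 transcript clusters, each a set of probes for 1 transcript region. Those with exactly 1 gene symbol number 23871, and after a filter on low signal and 1 cluster per gene they gave 16111 genes.

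The other arrays had mock-treated cells and cells given isolated flagellin of Salmonella Typhimurium SL1344 (ST), each also at 120 and 60 min with 3 arrays per group. Per the labels' protocols, all groups shared the same receptor line, SILAC media (lysine and arginine of 3 mass labels), and use at passage 7, and both flagellins were dosed to match a multiplicity of infection of 10. The promoter of the mouse transgene, whether the line is 1 clone, and which array had which amino acid label are unknown here. The replicates A, B and C are called biological, but nothing in the labels ties them to separate cultures, so p-values measure the spread between these arrays, which may be technical. The titles of the ST arrays name ST flagellin while their description fields name mock, and the titles were followed.

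Flagellin is sensed by TLR5, which signals through MyD88 and the IRAK kinases to a pair of main outputs. One is NF-kB, which switches on its own inhibitors and cytokine genes, and the other is the MAP kinases, which act on serum response factor and its partners at immediate-early genes such as EGR1 and FOS. Immediate-early transcripts appear without new protein synthesis and are short-lived. Their products, and the phosphatases and repressors made after them, belong to a later wave. Epithelial cells answer flagellin in this way, and so do HEK293 cells that overexpress the receptor.

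Serum response factor sites and cyclic AMP response elements are known controls of these early genes, so the promoters of EGR1 and FOS, the genes with the lowest log2 fold changes in the immediate-early list, are shown. Both were picked after their values were seen. They are RefSeq sequences of GRCh38.p14, from 250 bases before to 50 bases after the start. Capitals mark the CArG boxes, the core of a serum response factor site, in EGR1 (chr5:138465229-138465528, plus strand) and the cyclic AMP response element core TGACG in FOS (chr14:75278578-75278877, plus strand).
EGR1: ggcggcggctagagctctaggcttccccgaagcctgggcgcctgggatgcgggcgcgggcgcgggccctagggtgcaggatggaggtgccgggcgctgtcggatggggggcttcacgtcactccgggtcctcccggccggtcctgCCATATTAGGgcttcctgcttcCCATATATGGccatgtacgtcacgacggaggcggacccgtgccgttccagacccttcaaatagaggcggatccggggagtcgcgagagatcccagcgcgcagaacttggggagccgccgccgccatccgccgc
FOS: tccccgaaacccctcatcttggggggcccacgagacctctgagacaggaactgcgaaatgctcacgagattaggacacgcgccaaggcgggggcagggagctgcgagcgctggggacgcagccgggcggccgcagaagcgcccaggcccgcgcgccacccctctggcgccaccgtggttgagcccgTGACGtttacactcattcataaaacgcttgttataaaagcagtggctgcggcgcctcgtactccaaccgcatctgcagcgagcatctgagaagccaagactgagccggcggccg
The EGR1 window holds 2 CArG boxes and 2 copies of TGACG, counting both strands. The FOS window holds 0 CArG boxes and 1 copy of TGACG. Sites further than 250 bases before the start were not searched, so the 0 does not mean that FOS lacks a serum response factor site. Of 35116 promoters in the same table, 1.3% hold a CArG box and 24.6% a TGACG. Neither window holds the AP-1 site TGANTCA, found in 7.7% of promoters, or an NF-kB site, found in 5.9%. A match is a description of letters and not of a bound factor.

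Some arrays stood apart before any time comparison. Several classic NF-kB targets were high on the arrays lettered C of both flagellins at both times. They were also high on the array labelled mock 120 min A, and low on all others. CCL20 and SELE were not high on EcN C at 60 min. CXCL8, the neutrophil chemokine interleukin 8, stood at log2 signals of 7.47 and 5.62 on EcN C at 120 and 60 min and at 7.53 on mock 120 min A, while it was between 2.35 and 2.67 on the 4 EcN arrays lettered A and B. The arrays of letters A and B with flagellin and the array labelled mock 120 min A thus went against their labels in this readout. Whether an array or sample was exchanged was not tested, and it bears on every EcN and mock value given here. Values without the letter C are given for the leading early and NF-kB genes and for list medians that moved, and differences from mock also without mock 120 min A. Array medians over all clusters lay between 2.27 and 2.32, and 3 arrays per group limit the precision. The cell type was as labelled: 10 of 11 genes known for HEK293 passed the filter, with neurofilament NEFL at a mean of 10.36 at EcN 120 min and 10.58 at EcN 60 min and vimentin VIM at 7.69 at both. NEFM, at 2.23 and 2.26, lay near the array median.

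Markers of other cells moved little with time. Of 8 leukocyte genes only CD14 passed the filter, at a mean of 2.53 at both times, and PTPRC, CD3E and LYZ did not. Of 8 fibroblast genes 4 passed, with log2 signals between 2.27 and 5.74 at 120 min, and of 6 intestinal genes 5 passed, among them EPCAM at 8.04 and LGR5 at 8.27. No log2 fold change in these 3 lists exceeded 0.25 in size. In such bulk RNA, fewer cells of a kind and less RNA per cell cannot be told apart.

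Between 120 and 60 min of EcN flagellin, the levels of early-response genes EGR1, FOS, EGR3 and IER2 lay lower at 120 min, and those of the feedback genes NAB2, PMEPA1 and SMAD7 and the ribosome assembly factor RRS1 lay higher, on all arrays of each time. None of these differences passed the test across all genes. With limma over 16111 genes and Benjamini-Hochberg adjustment, 0 genes (0.0%) reached an adjusted p under 0.05, and the lowest adjusted p was 0.2503. At an unadjusted p under 0.05 there were 610 higher genes (3.79%) and 671 lower ones (4.16%). The groups did not overlap for 1248 genes higher at 120 min (7.75%) and 1325 lower (8.22%). The median log2 fold change over all genes was -0.01.

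A difference of 1.5-fold or more was seen for 202 genes, of which 46 were higher and 88 were lower with no overlap between the times. The same size was reached by 117 genes between the ST times and by 331 between the mock times. The mock 120 min arrays spread the most, with a median SD over genes of 0.19, against 0.13 to 0.14 in the other groups. These counts were thus not taken at like spread. Levels on EcN arrays of the same time correlated across genes with r between 0.991 and 0.992, and across times with r between 0.989 and 0.992, where genes are not independent replicates. The differences at letters A, B and C correlated over the 16111 genes with r of 0.18 for A with B, 0.11 for A with C and 0.13 for B with C.

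EGR1, a zinc finger transcription factor and the prototype immediate-early gene, had log2 signals of 8.92, 8.81 and 9.94 on the EcN 120 min arrays A, B and C, against 10.78, 10.51 and 11.40 on the EcN 60 min arrays. Every 120 min array lay below every 60 min array, and C was the highest of its time in both. The level was 3.19-fold lower at 120 min, a log2 fold change of -1.67 ± 0.37 (SE) with a limma adjusted p of 0.319. It was the lowest log2 fold change of all genes tested, and -1.78 without the letter C.

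FOS, a subunit of the AP-1 factor, had 5.68, 5.06 and 5.62 on the EcN 120 min arrays, against 6.33, 6.30 and 7.80 on the EcN 60 min arrays. The times did not overlap, and the 60 min C array stood above the rest. The log2 fold change was -1.36 ± 0.38, with an adjusted p of 0.438 by limma, and -0.94 without the letter C. EGR3, a paralog of EGR1, had 5.03, 4.60 and 5.75 at 120 min, against 5.85, 5.89 and 6.26 at 60 min, and IER2, a nuclear early-response protein, had 6.33, 6.41 and 6.88, against 7.35, 6.99 and 7.91. Both had a log2 fold change of -0.88 ± 0.33 with no overlap, with limma adjusted p of 0.534 for EGR3 and 0.537 for IER2. Without the letter C they stood at -1.06 for EGR3 and -0.80 for IER2.

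**Figure D1:**
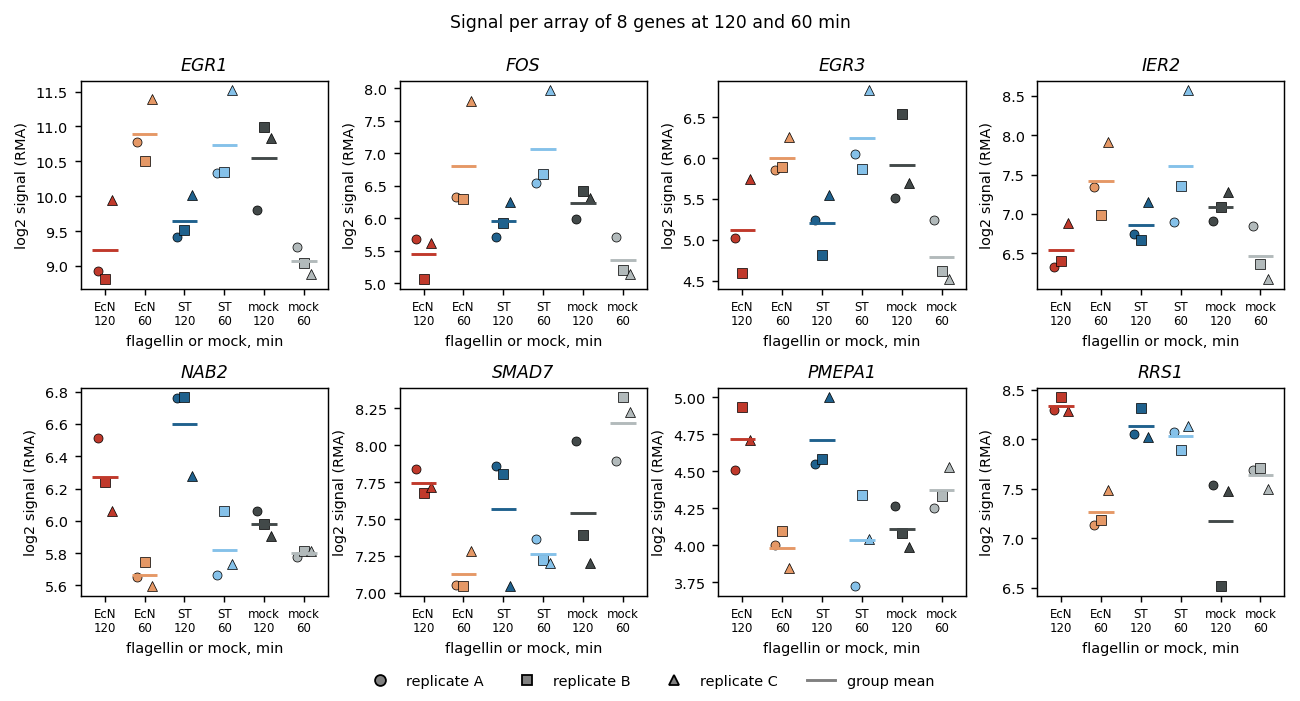
Log2 RMA signal (y axis) of 8 genes on each of the 18 arrays, by treatment and minutes (x axis), with a marker per replicate letter and a bar at the group mean. On EcN arrays EGR1, FOS, EGR3 and IER2 lie lower at 120 than at 60 min and NAB2, SMAD7, PMEPA1 and RRS1 higher, with no overlap; for EGR1 the mock arrays run the other way, between 9.80 and 10.99 at 120 min and between 8.89 and 9.27 at 60 min.

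The nuclear receptor NR4A2 (log2 fold change -0.62 ± 0.25) and IER5L (-0.50 ± 0.15) also had every 120 min array below every 60 min array. JUN, the partner of FOS, had 9.14, 9.66 and 10.36 at 120 min, against 9.96, 10.10 and 10.88 at 60 min. The 2 groups of JUN overlapped, with a log2 fold change of -0.59 ± 0.31 and an adjusted p of 0.685 by limma. At each letter JUN lay lower at 120 min, and the C array was the highest of each time. FOSB overlapped too, at -1.22 ± 0.71, as did ATF3 (-0.33 ± 0.34), JUNB (-0.42 ± 0.59), MYC (-0.26 ± 0.21) and KLF6 (-0.24 ± 0.21).

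Of 36 listed immediate-early genes 33 were measured and 0 were called by limma. Without overlap 6 (18.2%) lay lower and 3 (9.09%) higher, beside 8.22% and 7.75% of all genes. At an unadjusted p under 0.05, 6 (18.2%) were lower and 2 (6.06%) higher, beside 4.16% and 3.79% of all genes. The 2 higher ones were NAB2 and NAB1, which bind EGR proteins and repress them. NAB2 had 6.51, 6.24 and 6.06 at 120 min, against 5.65, 5.75 and 5.59 at 60 min, a log2 fold change of 0.60 ± 0.14 with no overlap and an adjusted p of 0.402 by limma. NAB1 stood at 0.33 ± 0.13, also with no overlap, and serum response factor SRF at 0.26 ± 0.14. The median over the list was -0.10, or -0.19 without the letter C, and it stayed below 0 under all 29 alternative settings, between -0.21 and -0.02. Many of these settings cannot move an EcN list median, here or for the lists below. They are leaving out a mock or ST array, replicate letter as a block, the EcN arrays alone, and trend and robust settings.

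The MAP kinase feedback inhibitors split. Of 16 measured genes 4 (25%) had every EcN 120 min array above every EcN 60 min array and 1 (6.25%) below, beside 7.75% and 8.22% of all genes. Those above were the JNK phosphatase DUSP16 (log2 fold change 0.34 ± 0.13), SPRED1 (0.27 ± 0.12), SPRED2 (0.18 ± 0.14) and SPRY4 (0.36 ± 0.17), the last 3 being inhibitors of signalling to ERK. The 1 below was SPRY1 (-0.23 ± 0.14), a paralog of SPRY4. SPRY4 had 5.77, 5.77 and 6.02 at 120 min, against 5.29, 5.69 and 5.50 at 60 min. DUSP1, an early-induced MAP kinase phosphatase, had 8.86, 9.02 and 9.98 at 120 min, against 9.38, 9.54 and 10.38 at 60 min, with overlap. At each letter DUSP1 lay lower at 120 min, and the C array was the highest of each time. The log2 fold change of DUSP1 was -0.48 ± 0.42 with a limma adjusted p of 0.839. DUSP6 stood at -0.01 ± 0.18 and DUSP5 at -0.12 ± 0.17.

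Of 19 measured genes of TLR5 and MyD88 signalling, 1 (5.26%) was lower and 0 were higher at an unadjusted p under 0.05, beside 4.16% and 3.79% of all genes. Without overlap, 2 (10.5%) lay higher and 1 (5.26%) lower, beside 7.75% and 8.22%. MYD88, the adaptor of the receptor, had 4.28, 4.15 and 4.34 at 120 min, against 4.45, 4.76 and 4.55 at 60 min, a log2 fold change of -0.33 ± 0.13 with a limma adjusted p of 0.544. SIGIRR, an inhibitory receptor of the same family, stood at 0.28 ± 0.18 with no overlap. Human TLR5 had 3.78, 4.05 and 3.53, against 3.91, 3.86 and 3.93, and these overlapped. How far its probes read the mouse transgene was not tested.

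For NF-kB targets the time comparison rested on the letter C. NFKBIA, the inhibitor IkB-alpha and one of the fastest NF-kB targets, had 8.09, 8.17 and 10.34 at 120 min, against 8.28, 8.30 and 10.15 at 60 min. It was high on both C arrays and low on the others, so the groups overlapped, and its log2 fold change was -0.04 ± 0.85. TNFAIP3, the ubiquitin-editing inhibitor A20, had 5.99, 6.27 and 9.27 at 120 min, against 6.13, 5.95 and 8.20 at 60 min. CXCL8 had 2.67, 2.57 and 7.47 at 120 min, against 2.35, 2.52 and 5.62 at 60 min.

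Other cytokine and adhesion genes stood further apart between the 2 C arrays. TNF had 2.73, 2.86 and 5.69 at 120 min, against 2.83, 2.78 and 3.80 at 60 min. The chemokine CCL20, which draws dendritic cells and lymphocytes to mucosa, had 1.80, 1.72 and 4.95, against 1.82, 1.94 and 2.35. E-selectin SELE had 1.39, 1.87 and 4.74, against 1.51, 1.87 and 1.99. For each of these, C at 120 min was the highest array, and at letters A and B the signals stayed below 3, near or below the array medians. The chemokine CXCL10 had 2.95, 3.25 and 4.98, against 2.62, 2.95 and 3.36 (0.74 ± 1.00).

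**Figure D2:**
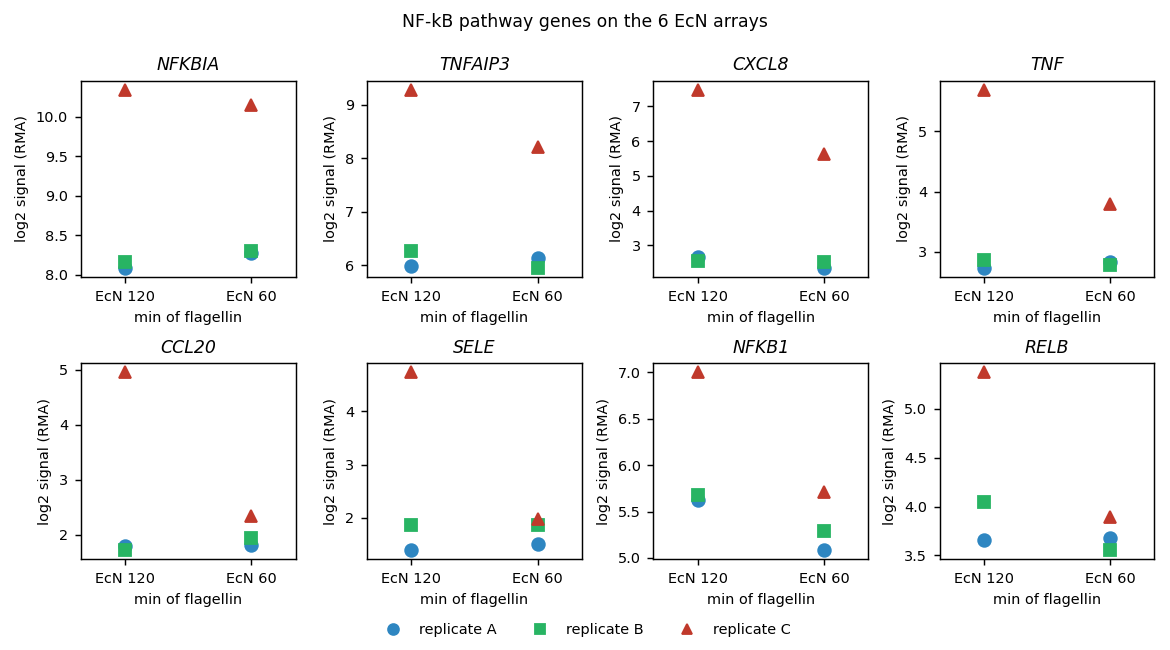
Log2 RMA signal (y axis) of 8 NF-kB pathway genes on the EcN 120 and EcN 60 min arrays (x axis), with a colour and marker per replicate letter. NFKBIA is high on both C arrays (10.34 and 10.15), while CCL20 and SELE are high on the 120 min C array (4.95 and 4.74) and not on the 60 min one (2.35 and 1.99).

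The C array at 120 min minus the C array at 60 min, a single pair with no replicate check, came to 2.75 for SELE, 2.60 for CCL20, 1.89 for TNF, 1.85 for CXCL8 and 1.07 for TNFAIP3, and 0.19 for NFKBIA. On the EcN 60 min C array SELE lay below its array's median and CCL20 near it, so their 2 values have no measured lower end and can be understated. The subunit genes NFKB1 and RELB stood at 7.0 and 5.37 on C at 120 min, against 5.71 and 3.90 on C at 60 min. NFKB1, which encodes p105 and p50, was also higher at letters A and B, with 5.62 and 5.68 at 120 min, against 5.08 and 5.29 at 60 min. Its log2 fold change over all 3 was 0.74 ± 0.48, with a limma adjusted p of 0.757. The heparan sulfate proteoglycan SDC4 had 8.34, 8.71 and 9.80, against 8.35, 8.25 and 8.76.

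By list, 0 of 19 NF-kB subunits and feedback inhibitors, 0 of 15 other NF-kB targets and 1 of 19 cytokines and chemokines passed an unadjusted p under 0.05, beside 3.79% of all genes higher and 4.16% lower. The 1 was the macrophage growth factor CSF1, lower at 120 min with a log2 fold change of -0.37 ± 0.12. Between the C arrays 14 of 19 NF-kB subunits and inhibitors (73.7%), 10 of 15 other targets (66.7%) and 10 of 19 cytokines (52.6%) were higher at 120 min, beside 46.7% of all genes. With the letter C left out, the log2 fold changes were -0.12 for CCL20, -0.06 for SELE and -0.01 for TNF, against 0.79 ± 1.00, 0.87 ± 1.05 and 0.62 ± 1.02 with all arrays. Without C the log2 fold change was 0.18 for CXCL8, 0.09 for TNFAIP3, -0.16 for NFKBIA and 0.47 for NFKB1. The list median was -0.10 without C and 0.06 with it for the other NF-kB targets, 0.01 and 0.08 for the subunits and inhibitors, and -0.03 and -0.08 for the cytokines.

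Interferon-stimulated genes lay close at both times. ISG15, a ubiquitin-like antiviral protein, had 4.53, 6.12 and 5.84 at 120 min, against 4.22, 5.91 and 5.79 at 60 min, and IFIT3 had 4.10, 5.63 and 5.46, against 4.72, 5.81 and 5.47. In both, replicate A was the lowest of each time. Of 35 measured genes of the list 1 (2.86%) was lower and 0 higher at an unadjusted p under 0.05, beside 4.16% and 3.79% of all genes, with a median of -0.07. The 1 was IFITM2, an inhibitor of viral entry, at 8.01, 8.02 and 8.03, against 8.23, 8.64 and 8.28, a log2 fold change of -0.36 ± 0.14 with an adjusted p of 0.544 by limma. IFIT2 stood at -0.40 ± 0.20 with overlap. The list median turned above 0 when EcN 60 min B or C or EcN 120 min A was left out, reaching 0.22 without the last.

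Feedback genes of TGF-beta and BMP signalling held 2 of the larger positive log2 fold changes. PMEPA1, which takes SMAD proteins away from the TGF-beta receptor, had 4.51, 4.93 and 4.71 at 120 min, against 4.0, 4.09 and 3.84 at 60 min. SMAD7, the inhibitory SMAD, had 7.84, 7.68 and 7.72, against 7.05, 7.05 and 7.29. The times did not overlap in either. The log2 fold change was 0.74 ± 0.16 for PMEPA1, with a limma adjusted p of 0.319, and 0.62 ± 0.21 for SMAD7, with an adjusted p of 0.491. The SMAD corepressor SKIL also lay higher on all 120 min arrays, at 0.22 ± 0.12. The rest of the 14 measured genes overlapped, with ID1 at 0.09 ± 0.21, ID3 at -0.10 ± 0.19 and SMAD6 at -0.04 ± 0.16. So 3 of 14 (21.4%) lay higher without overlap and 0 lower, beside 7.75% and 8.22% of all genes. An unadjusted p under 0.05 was reached by 2 higher (14.3%) and 0 lower, beside 3.79% and 4.16%. The list median was 0.04. Between the C arrays 6 of 14 (42.9%) were higher at 120 min, beside 46.7% of all genes.

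The nucleolar list leaned upward. RRS1, an assembly factor of the large ribosomal subunit, had 8.29, 8.43 and 8.28 at 120 min, against 7.13, 7.18 and 7.49 at 60 min, which is 2.10-fold higher. Its log2 fold change of 1.07 ± 0.20 had an adjusted p of 0.250 by limma, the lowest value reached, which it shared with 4 other genes. Leaving out mock 120 min B, which enters only through the shared spread, made that 0.00244. Of 35 measured ribosome biogenesis factors 9 (25.7%) had every 120 min array above every 60 min array and 1 (2.86%) below, beside 7.75% and 8.22% of all genes.

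The other 8 of these were GRWD1 (0.34 ± 0.16), NOP16 (0.31 ± 0.12), MYBBP1A (0.24 ± 0.10), NIP7 (0.21 in log2), NOP2 (0.21), TSR1 (0.19), NOP14 (0.18) and RRP12 (0.17), with NOLC1 (-0.15) the 1 below. These are known factors of rRNA processing or subunit assembly. NPM1, the nucleolar chaperone nucleophosmin, stood the other way at 4.19, 3.93 and 4.54, against 4.94, 4.43 and 4.65, with overlap. In all, 25 of 35 log2 fold changes were above 0 (71.4%, beside 47.3% of all genes). The list median of 0.06 stayed above 0 under all 29 alternatives, between 0.02 and 0.11, with 0.02 without the letter C.

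Of 25 measured tRNA synthetases and amino acid transporters 3 (12%) lay higher without overlap and 0 lower, beside 7.75% and 8.22% of all genes. With an unadjusted p under 0.05 there were 2 higher (8%) and 0 lower, beside 3.79% and 4.16%. SLC7A1, the cationic amino acid transporter, had 9.01, 8.80 and 8.96 at 120 min, against 8.56, 8.46 and 8.58 at 60 min, and SLC7A5, the large neutral one, had 10.83, 10.55 and 10.56, against 10.45, 10.35 and 10.43. The log2 fold changes were 0.39 ± 0.12 and 0.23 ± 0.09, with no overlap, and limma adjusted p was 0.456 and 0.544. The valyl-tRNA synthetase VARS1 stood at 0.18 ± 0.09. Other transporters of the list overlapped, among them SLC3A2 (0.02 in log2), SLC1A4 (0.03), SLC6A9 (0.01), SLC38A1 (-0.07) and SLC38A2 (-0.17), and the list median was -0.01.

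Cytosolic ribosomal protein and respiratory chain genes leaned lower by list median. Of 53 measured cytosolic ribosomal protein genes 15 (28.3%) had every EcN 120 min array below every EcN 60 min array and 1 (1.89%) above, beside 8.22% and 7.75% of all genes. Fewer, 6 (11.3%), were lower at an unadjusted p under 0.05 and 1 (1.89%) higher, beside 4.16% and 3.79%. Of the list 14 (26.4%) had a log2 fold change above 0. RPS26 had 6.18, 5.11 and 5.71 at 120 min, against 6.52, 6.19 and 6.38 at 60 min, a log2 fold change of -0.70 ± 0.25 with an adjusted p of 0.514 by limma. RPL32 (-0.35 ± 0.25) overlapped. RPS4X (-0.35 in log2), RPS21 (-0.31) and RPS9 (-0.28) were among those below, and RPL22 (0.20) was the 1 above. Many of these genes have near-identical processed copies that the probes could also read.

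Of 67 measured subunits of the respiratory chain and ATP synthase 11 (16.4%) were below without overlap and 0 above, beside 8.22% and 7.75% of all genes, and 12 (17.9%) had a log2 fold change above 0. An unadjusted p under 0.05 was reached by 9 lower (13.4%) and 0 higher, beside 4.16% and 3.79%. COX6B1, a subunit of cytochrome c oxidase, had 8.75, 8.76 and 8.85 at 120 min, against 9.48, 9.65 and 9.12 at 60 min. ATP5F1D, the delta subunit of ATP synthase, had 9.60, 9.28 and 9.53, against 10.05, 10.19 and 9.86. Their log2 fold changes were -0.62 ± 0.16 and -0.56 ± 0.12, with limma adjusted p of 0.408 and 0.319. COX8A (-0.40), NDUFS4 (-0.36) and NDUFB5 (-0.27) also did not overlap.

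The list median was -0.11 for ribosomal proteins and -0.10 for the respiratory chain, and both stayed below 0 under all 29 alternatives. Without the letter C they were -0.13 and -0.13. No member was called. Housekeeping genes leaned the same way, with a median of -0.12 over 8 and HPRT1 at -0.22 ± 0.12. ACTB, beta-actin, had 7.17, 6.04 and 7.01 at 120 min, against 7.64, 7.08 and 7.18 at 60 min, while GAPDH had 7.55, 7.28 and 7.46, against 7.27, 7.47 and 7.50. RNA was checked on a Bioanalyzer, per the labels' protocols, and the part of RNA quality in these small differences was not tested. Whether other genes of like signal lean the same way was not tested either.

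Small nucleolar and Cajal body RNAs, which guide the modification of ribosomal and spliceosomal RNA, had the lowest list median, -0.16 over 127. It stayed between -0.20 and -0.12 under the 29 alternatives. SNORD60 had 4.61, 3.0 and 4.62 at 120 min, against 5.47, 5.38 and 5.04 at 60 min, a log2 fold change of -1.22 ± 0.42 with an adjusted p of 0.492 by limma. SNORA38B ran the other way at 11.29, 11.82 and 11.41, against 9.97, 9.72 and 10.47. Its log2 fold change of 1.45 ± 0.38 (adjusted p 0.408 by limma) was the highest of all genes tested. By count 20 of the list (15.7%) lay below without overlap and 6 (4.72%) above, beside 8.22% and 7.75% of all genes. With an unadjusted p under 0.05 there were 15 lower (11.8%) and 6 higher (4.72%), beside 4.16% and 3.79%.

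**Figure D3:**
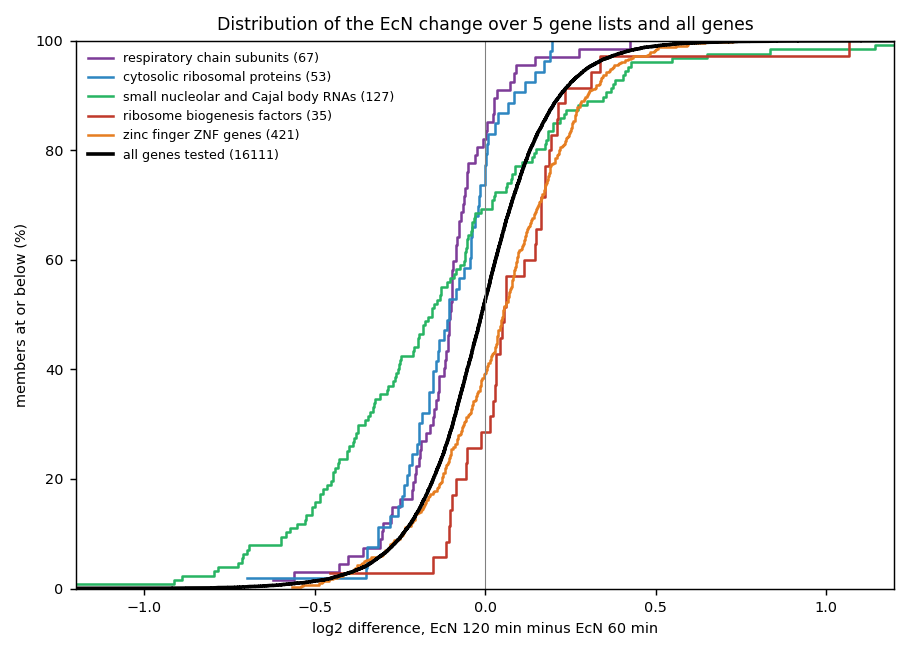
Cumulative share of list members (y axis, percent) at or below each log2 difference between EcN 120 min and EcN 60 min (x axis, cut at 1.2 on both sides), for 5 gene lists and all 16111 genes tested. Curves left of the black line are lists that lie lower at 120 min; 17.9% of respiratory chain subunits, 26.4% of ribosomal protein genes and 71.4% of ribosome biogenesis factors lie above 0, beside 47.3% of all genes.

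Zinc finger ZNF genes, many of them KRAB repressors of transposable elements, lay slightly higher. Of 421 measured, 255 (60.6%) had a log2 fold change above 0, and 51 (12.1%) were above without overlap against 25 (5.94%) below, beside 7.75% and 8.22% of all genes. An unadjusted p under 0.05 was reached by 35 higher (8.31%) and 11 lower (2.61%), beside 3.79% and 4.16%. ZNF429 had 2.66, 2.84 and 2.56 at 120 min, against 2.51, 1.46 and 1.91 at 60 min (0.73 ± 0.21), and ZNF324 had 6.19, 6.02 and 5.63, against 5.38, 5.09 and 5.44 (0.64 ± 0.20). The limma adjusted p was 0.444 and 0.456. For ZNF429 the EcN 60 min arrays B and C lay below the array medians, so its fold change can be understated. ZNF467 stood at -0.49 ± 0.30. The list median of 0.05 ranged between 0.03 and 0.08 under the alternatives.

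Long non-coding and microRNA host transcripts had small list medians of differing sign. Without overlap, 5.26% of LINC transcripts lay higher and 9.09% lower, beside 7.75% and 8.22% of all genes. For antisense transcripts it was 5.47% and 9.89%, and for microRNA precursors and host genes 7.94% and 5.88%. With an unadjusted p under 0.05 there were 1.44% of LINC transcripts higher and 4.78% lower, beside 3.79% and 4.16%. Those shares were 4.21% and 5.47% for antisense transcripts, and 4.41% and 3.53% for microRNA precursors and host genes. The median was -0.04 over 209 LINC transcripts, -0.03 over 475 antisense transcripts and 0.03 over 340 microRNA precursors and host genes. LINC00857 had 4.25, 4.06 and 3.96 at 120 min, against 4.62, 4.88 and 4.91 at 60 min (-0.72 ± 0.14, limma adjusted p 0.251). LINC00173 overlapped at -0.60 ± 0.30. The antisense transcript SCAMP1-AS1 (-0.70 ± 0.21) also lay lower without overlap, as did 1 of the 3 clusters of ERCC6L2-AS1 (-1.02 ± 0.34), while its other clusters stood at -0.02 and 0.10. The precursors MIR548H2 (-1.07 ± 0.26) and MIR1290 (-1.16 ± 0.44) did too, at mean signals near the array median.

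The 10 smallest p-values in each direction held further genes. TXNIP, the thioredoxin-binding arrestin that glucose induces, had 3.44, 3.62 and 3.55 at 120 min, against 4.29, 4.39 and 4.34 at 60 min. FUT1, a fucosyltransferase of the H blood group antigen, had 4.20, 3.81 and 3.52, against 5.22, 4.84 and 5.21. SOCS2, a suppressor of cytokine and growth hormone signalling, had 3.36, 3.61 and 3.39, against 4.03, 3.93 and 4.13. Each was lower on all 120 min arrays, with log2 fold changes of -0.80 ± 0.15 for TXNIP, -1.24 ± 0.23 for FUT1 and -0.58 ± 0.10 for SOCS2 and the same limma adjusted p of 0.250.

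INAFM2 (-0.62 ± 0.11) shared that adjusted p. GRB7, an adaptor of receptor tyrosine kinases, had 3.01, 2.93 and 3.06 at 120 min, against 3.83, 3.87 and 3.67 at 60 min (-0.79 ± 0.16, limma adjusted p 0.251). OSCP1 (-0.47 ± 0.10) and the tropomyosin TPM1 (-0.56 ± 0.12) followed. Among higher genes, the RNA-binding protein MEX3B had 5.07, 5.28 and 4.93, against 4.63, 4.20 and 4.38 (0.69 ± 0.14, adjusted p 0.251 by limma). The precursor MIR548X2 (0.91 ± 0.19), the antisense transcript TMSB15B-AS1 (0.55 ± 0.12), C2orf42 (0.52 ± 0.11), the zinc finger gene ZNF644 (0.48 ± 0.11), SMPD4BP (0.68 ± 0.15), the pseudouridine synthase family member RPUSD2 (0.57 ± 0.13) and the mitochondrial methionyl-tRNA synthetase MARS2 (0.41 ± 0.09) came next.

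Of 10 measured NRF2 targets 2 (20%), of 18 hypoxia and glycolysis genes 2 (11.1%) and of 11 heat shock proteins 2 (18.2%) lay lower without overlap, beside 8.22% of all genes, and 0 of each lay higher. By unadjusted p under 0.05 it was 1 (10%), 1 (5.56%) and 2 (18.2%) lower, beside 4.16%, and again 0 higher. HMOX1, heme oxygenase 1 and an NRF2 target, had 7.84, 7.68 and 7.79 at 120 min, against 8.09, 8.22 and 8.17 at 60 min (-0.39 ± 0.13). ANKRD37, a hypoxia target, had 3.43, 3.34 and 3.16, against 3.51, 4.11 and 4.0 (-0.57 ± 0.16), and the chaperone HSP90AB1 had 9.09, 9.10 and 9.13, against 9.75, 9.29 and 9.45 (-0.39 ± 0.18). All 3 were lower without overlap, and their limma adjusted p was 0.496, 0.444 and 0.621. OSGIN1 (0.26 ± 0.19), PFKFB4 (-0.33 ± 0.31) and HSPA6 (0.27 ± 0.21), the second largest of each list, overlapped. The medians were -0.04 over 10 NRF2 targets, -0.05 over 18 hypoxia and glycolysis genes and 0.01 over 11 heat shock proteins.

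Sterol synthesis genes had a median of -0.05 over 23. MVD, mevalonate diphosphate decarboxylase, stood at 0.38 ± 0.14 with overlap, and INSIG1, the sterol-regulated anchor of SREBP, at -0.20 ± 0.17, with SC5D at -0.25 ± 0.15. The median was 0.00 over 25 genes of the unfolded protein response and ATF4, where SESN2 lay higher without overlap (0.24 ± 0.12) and CHAC1 overlapped (0.36 ± 0.29). It was -0.01 over 18 p53 targets, with TP53INP1 at -0.32 ± 0.20 and TP53I3 at -0.29 ± 0.15, and -0.01 over 29 cell cycle genes, with the anaphase activator CDC20 at -0.18 ± 0.08, CCND3 at 0.23 ± 0.13 and PLK1 at -0.19 ± 0.11. Of 21 replication-dependent histones 3 (14.3%) were lower at an unadjusted p under 0.05, beside 4.16% of all genes, among them H2BC13 (-0.53 ± 0.22) and the linker histone H1-1 (-0.41 ± 0.16). Without overlap 3 (14.3%) lay lower and 0 higher, beside 8.22% and 7.75% of all genes. The histone median was -0.09, and it turned to 0.0045 when EcN 60 min B was left out. Of 13 CCN genes and YAP targets AMOTL2 stood at 0.41 ± 0.17 and AJUBA at -0.45 ± 0.17, and the median was 0.06.

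Leaving out the letter C moved the EcN median by over 1.5 times in 18 of the 27 lists, and 5 of them changed sign. Besides those given above, the median without C was -0.17 for histones, 0.00 for CCN genes and YAP targets, 0.08 for TGF-beta and BMP feedback, 0.02 for MAP kinase feedback inhibitors, 0.03 for TLR5 and MyD88 signalling and -0.06 for the cell cycle. It was -0.02 for p53 targets, -0.02 for the unfolded protein response, -0.02 for heat shock proteins, -0.03 for sterol synthesis, -0.0047 for synthetases and transporters, -0.01 for antisense transcripts and 0.05 for microRNA precursors. For all genes it was -0.01 with and without C.

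The EcN differences were next set against those of mock cells over the same interval. For early genes the mock arrays ran the other way: EGR1 had 9.80, 10.99 and 10.84 on the mock 120 min arrays, against 9.27, 9.04 and 8.89 on the mock 60 min arrays. FOS had 5.99, 6.42 and 6.31, against 5.72, 5.21 and 5.14. The immediate-early list had a median of -0.10 with EcN and 0.30 with mock, and 0.18 for mock without the array mock 120 min A.

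With all arrays, 0 of 16111 genes (0.0%) had a difference between the EcN and mock time changes that passed limma's adjusted p of 0.05, while 958 (5.95%) were higher and 977 (6.06%) lower with EcN at an unadjusted p under 0.05. The lowest adjusted p was 0.1692. The 5 smallest p-values with all arrays belonged to EGR1, RRS1, the transcription factor MYB (-1.01 ± 0.17), FAM221A (-1.21 ± 0.21) and the nonsense-mediated decay factor UPF2 (0.83 ± 0.16). Without mock 120 min A, the array with high NF-kB targets, 556 genes (3.45%) passed, 222 of them higher with EcN (1.38%) and 334 lower (2.07%). So these calls rest on leaving out 1 array, and 979 genes (6.08%) then also passed for mock 120 over mock 60 min alone. That array was singled out after its values were seen, and only B and C remain for mock 120 min. EcN arrays A and B, which also went against their labels, were kept. The adjusted p-values from this fit, given below, carry that choice.

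In 536 of the 556 genes EcN and mock had opposite signs, and in 70 the EcN time change was the larger in size. Genes chosen for a large difference between both changes tend to have opposite signs. Over all 16111 genes the EcN and mock time changes, which share no array, correlated with r of -0.13, or -0.17 without mock 120 min A. The EcN and ST time changes correlated with r of 0.17.

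Without mock 120 min A the EGR1 difference from mock was -3.52 ± 0.50 with a limma adjusted p of 0.00406, against -3.15 ± 0.53 and 0.169 with it. FOS was at -2.37 ± 0.58 (adjusted p 0.0391 by limma), EGR3 at -2.20 ± 0.48 (0.0238) and NR4A2 at -1.29 ± 0.32 (0.0391). On the other side stood RRS1 at 1.71 ± 0.27 (0.00668), SMAD7 at 1.47 ± 0.26 (0.0110) and PMEPA1 at 1.07 ± 0.24 (0.0261). RRS1 had 7.54, 6.51 and 7.47 on mock 120 min arrays, against 7.69, 7.71 and 7.50 on mock 60 min arrays. Of the mock 120 min arrays kept, C (7.47) thus lay close to the 60 min arrays and B (6.51) well below.

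The Notch ligand DLL1 had a difference of -1.87 ± 0.22 (limma adjusted p 0.00250) and TXNIP one of -1.31 ± 0.14 (0.00124). DLL1 had 4.96, 5.27 and 5.46 with EcN at 120 min, against 6.18, 5.95 and 5.82 at 60 min, and 4.82, 6.18 and 5.99 with mock at 120 min, against 5.13, 4.74 and 5.03 at 60 min. The forebrain factor FEZF1 (-1.77 ± 0.30), ZNF467 (-1.89 ± 0.36), SNORA37 (-1.93 ± 0.34) and AMZ2P1 (-1.71 ± 0.44) were among the 10 lowest. The 10 highest also held the coactivator NCOA5 (1.74 ± 0.23), the galanin receptor GALR2 (1.75 ± 0.28), the autophagy factor ATG14 (1.37 ± 0.22), INO80D (1.89 ± 0.31), FGF11 (1.41 ± 0.34), FAM222A (1.38 ± 0.30), RNA5SP435 (2.26 ± 0.47) and LOC100128340 (2.68 ± 0.46).

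Some of the lowest differences came from mock alone. IFIT3 differed by -2.40 ± 0.52 (limma adjusted p 0.0229) and IFI44L by -2.08 ± 0.48 (0.0304), while their EcN log2 fold changes were -0.27 ± 0.57 and -0.12 ± 0.53. IFIT3 had 2.12, 4.72 and 5.12 on the mock 120 min arrays, against 2.94, 2.45 and 2.96 on the mock 60 min arrays, so B and C at 120 min were high, and A lay below the array medians. INSIG1 differed by -1.26 ± 0.17 (0.00406), with mock at 1.07 and EcN at -0.20.

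**Figure D4:**
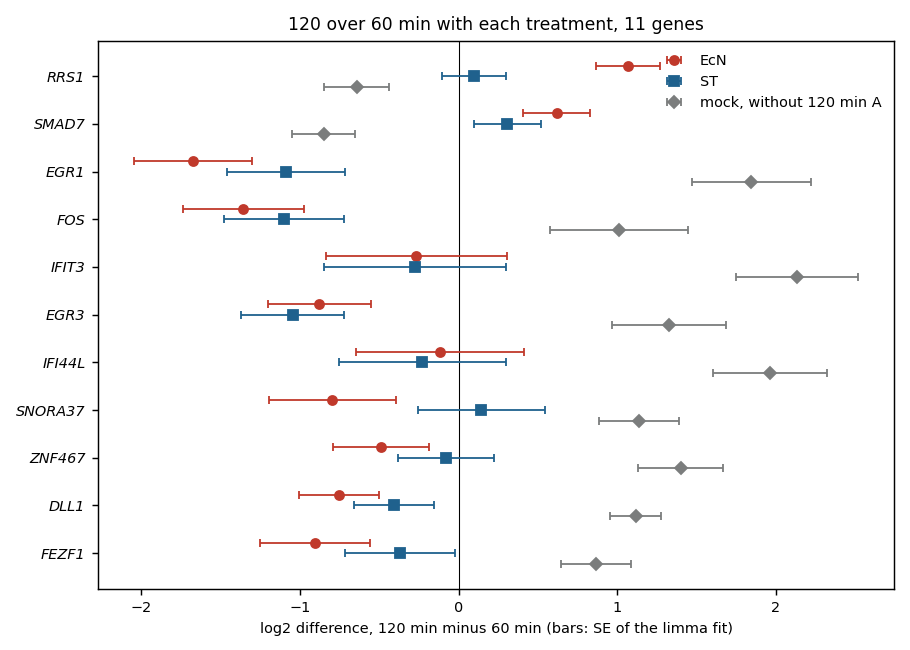
Log2 difference between 120 and 60 min (x axis) with EcN, ST and mock (without mock 120 min A) for 11 genes (y axis), with bars for the SE of the limma fit. EGR1, FOS and EGR3 lie below 0 with both flagellins and above 0 with mock, and IFIT3 and IFI44L lie near 0 with both flagellins and at 2.13 and 1.96 with mock.

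The 2 flagellins were compared over the same interval. No gene of 16111 (0.0%) differed between the EcN and ST time changes by limma at an adjusted p under 0.05, the lowest being 0.9068, and 752 (4.67%) had an unadjusted p under 0.05. EGR1 differed by -0.58 ± 0.53, FOS by -0.26 ± 0.54 and EGR3 by 0.17 ± 0.46. ST flagellin gave EGR1 signals of 9.41, 9.51 and 10.01 at 120 min, against 10.33, 10.35 and 11.52 at 60 min, so ST also lay lower at the later time on every array.

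NAB2 stood at 0.60 ± 0.14 with EcN and 0.78 with ST, and PMEPA1 at 0.74 ± 0.16 and 0.68. RRS1 was at 1.07 ± 0.20 with EcN and 0.10 with ST, with a difference of 0.97 ± 0.28 that did not pass (limma adjusted p 0.998). ST had 8.05, 8.31 and 8.02 at 120 min and already 8.08, 7.89 and 8.13 at 60 min. The 5 smallest p-values of this difference, all at an adjusted p of 0.907, belonged to TACC1 (0.70 ± 0.13), SOAT2 (1.02 ± 0.23), IGLJ3 (0.75 ± 0.17), MIR4440 (-1.21 ± 0.27) and MIR4525 (-1.46 ± 0.32).

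By list, the ribosomal protein median was -0.11 with EcN, -0.01 with ST and 0.10 with mock, and that of the respiratory chain was -0.10 with EcN, 0.05 with ST and 0.04 with mock. The small nucleolar RNAs had -0.16 with EcN, 0.01 with ST and 0.15 with mock. The ribosome biogenesis factors had 0.06 with EcN, 0.09 with ST and -0.05 with mock. These medians are descriptions, and their differences between treatments were not tested.

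**Figure D5:**
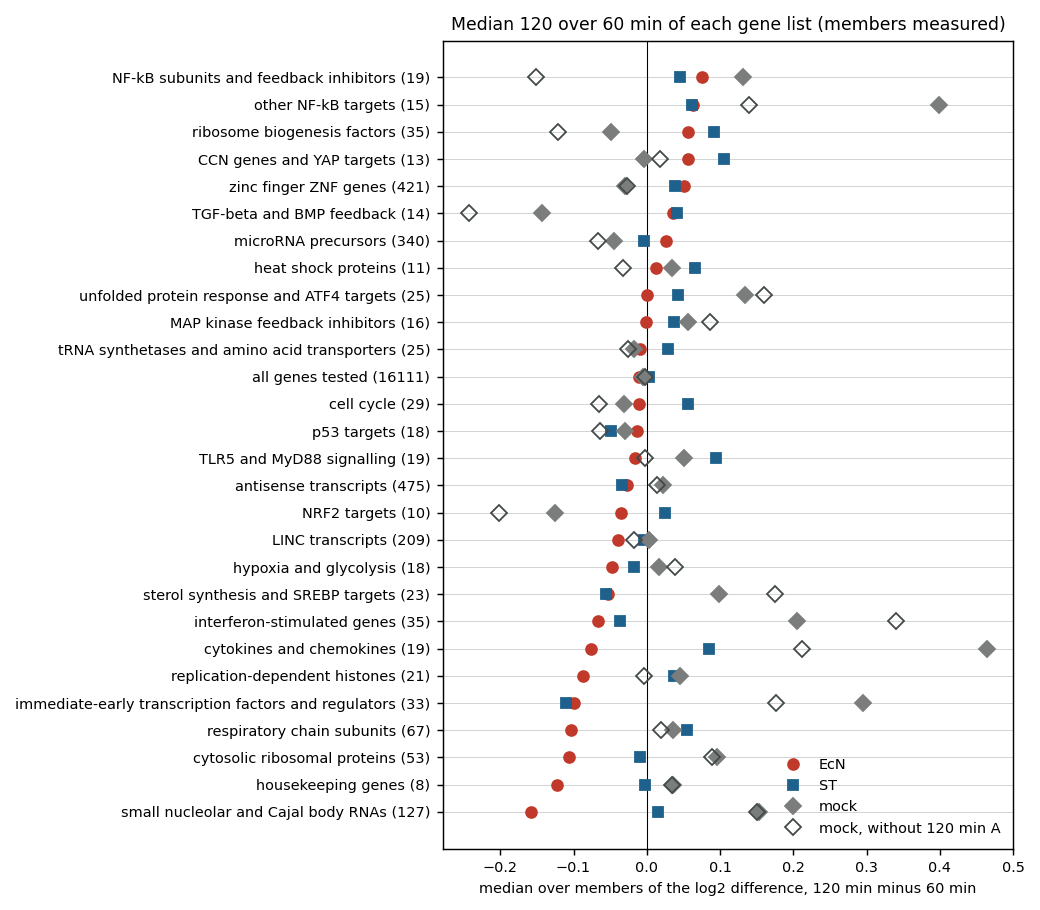
Median log2 difference between 120 and 60 min (x axis) over the measured members of 27 gene lists and all genes (y axis, number of members in brackets), for EcN, ST and mock, and for mock without its 120 min A array (open diamonds). EcN medians run from -0.16 for small nucleolar RNAs to 0.08 for NF-kB subunits and inhibitors, with all genes at -0.01, and mock medians for cytokines reach 0.47 with mock 120 min A and 0.21 without it.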

How the data were processed

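Total RNA of 100 ng per reaction was labelled, per the labels' protocols, and the deposited log2 values come from RMA in oligo 1.30.0, per the submitters' processing notes, with no annotation version given. They were used as deposited. Of 53617 clusters, 1842 had several symbols and 27904 none; these were tested apart (13332 clusters, 0 called for EcN 120 over 60 min) and are not named. Symbols were updated through the RefSeq table of GRCh38.p14, which changed 655. A cluster was kept if it lay above its array's median on at least 3 of 18 arrays, which 17117 of 23871 did, and the cluster with the highest mean stood for a gene (399 genes had several).

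Tests used limma 3.58.1 in R 4.3.3: lmFit with 6 group means on all 18 arrays, eBayes with 12 residual and 4.2 prior degrees of freedom, two-sided p adjusted by Benjamini-Hochberg over 16111 genes, called under 0.05. The fit was also run on simulated data, drawn as independent normal values with no letter effect and no deviant array. That run therefore does not cover these features of the arrays. Genes were named by rule: the 10 smallest p-values in each direction where none was called, the 2 members of each list with the largest log2 fold change in size, fixed marker genes, the 5 smallest p-values of each difference, and the 10 highest and lowest differences from mock without mock 120 min A. Other genes named are list members that passed a stated count or were picked after their values were seen. The members, the 27 lists and the alternatives were chosen with earlier results of these data known. The promoters shown were picked likewise.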

Additional observations from a re-analysis of the deposited data

How the results depend on the processing

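The count of genes called for EcN 120 over 60 min was 0 and ranged between 0 and 1 when any 1 of the 18 arrays was left out: TXNIP without mock 120 min A, RRS1 without mock 120 min B and CYP2J2 without EcN 60 min A. It was 0 under the other 11 alternatives, with the lowest adjusted p at 0.0604 under array weights. For the difference from mock the count was 0, but 1 (EGR1) with replicate letter as a block, 7 with array weights, and between 0 and 556 with 1 array left out, the 556 without mock 120 min A. For mock 120 over 60 min it was 0, but 1 with trend and robust settings and between 0 and 979 with 1 array left out. Replicate letter was not taken as pairing: EcN arrays of the same letter deviated together with r of 0.1356 for A, 0.0988 for B and 0.1392 for C, and the block gave 0 calls for EcN over time, with a lowest adjusted p of 0.274 on all arrays and 0.188 on the 6 EcN arrays alone.

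A setting that leaves out only a mock or ST array cannot change an EcN log2 fold change. Of 85 genes tested under 29 alternatives, these included, 73 kept the sign of their log2 fold change in all. Without the arrays lettered C it turned to -0.1184 for CCL20, -0.0642 for SELE, 0.0706 for PFKFB4, -0.0096 for TNF and 0.0324 for TLR5, and with array weights to -0.0066 for GAPDH. With 1 array left out it ranged between -0.2742 and 1.3408 for CCL20, between -0.1624 and 1.5122 for SELE, between -0.0645 and 0.69 for CHAC1, between -0.6972 and 0.0167 for PFKFB4, between -0.4079 and 0.0037 for SC5D, between -0.7814 and 0.5772 for NFKBIA, between -0.63 and 1.1369 for TNFAIP3, between -0.8808 and 1.799 for CXCL8, between -0.3405 and 1.1379 for TNF, between -0.2458 and 0.0153 for TLR5, between -0.3539 and 0.6732 for ISG15 and between -0.0595 and 0.087 for GAPDH. The cause of these turns was not tested. In 783 checks of the lists a called member appeared once, RRS1.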
